A study of Mus musculus with 4 samples.

Results

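The comparison is of 2 cultures of immortalized mouse embryonic fibroblasts, one given MycN and one given Myc, measured by RNA-seq with 1 library each. Its members are the genes whose FPKM, averaged over the study's 4 libraries, reached 1, which holds for 11950 of the 23366 genes in the table. FPKM is a level per transcript length, relative to the total of the library. After 310 small RNA genes were set aside, 11640 genes were compared. All 4 cultures, which were given empty vector, Myc, MycN or a protein labelled Minimal Myc, were treated with an adenovirus carrying Cre, a recombinase that removes DNA flanked by loxP sites. They were grown in DMEM with 10% FBS and harvested after a recovery given as 48 without a unit. The series design describes cells with deleted Myc compared with cells that contain one of the Myc proteins. The labels do not give the promoter or vector of the added genes, or whether a culture is a clone or a pool.

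Myc and MycN are transcription factors of 1 family that bind DNA as dimers with Max and share the E-box motif CACGTG. Myc is known in fibroblasts for driving genes of ribosome assembly, translation, nucleotide synthesis and metabolism, and for lowering genes of adhesion and the cytoskeleton. MycN is best known from the developing nervous system and from neuroblastoma. Dimers of Max with Mxd proteins, Mxi1, Mnt or Mga bind the same motif and oppose Myc.

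A difference is given as log2(FPKM + 1) in MycN minus that in Myc, a scale that understates the differences of low genes. With 1 library a side no test was possible, no difference has a replicate check, and only sizes are given. Where 4 values follow one another without names, they are the FPKM in Myc, MycN, vector and Minimal Myc, in that order. The compared genes summed to 520918 FPKM in Myc, 447405 in MycN, 325658 in vector and 524372 in Minimal Myc. Levels in vector are thus read on a lower total. The depth of the libraries is unknown because FPKM holds no read counts. In such bulk RNA, fewer cells of a type and less RNA per cell cannot be told apart.

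The added genes separated the libraries. Mycn stood at 0.275 FPKM in Myc and 178 in MycN, with 0.390 in vector and 95.9 in Minimal Myc, a difference of 7.14. Myc stood at 141 FPKM in Myc and 4.36 in MycN, with 22.2 in vector and 32.6 in Minimal Myc, a difference of -4.73. Of the 4, the MycN library had the lowest Myc, below the library labelled vector. Per length, the Mycn of the MycN library and the Myc of the Myc library were of like size, and FPKM of a whole gene cannot say which part came from the added gene.

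The partners and rivals of both proteins differed far less than Myc and Mycn themselves. Max was 37.3 FPKM in Myc and 36.2 in MycN, a difference of -0.04. Of the Max-binding repressors, Mxd3 was lower in MycN by log2 difference (-0.62; 36.9 FPKM in Myc and 23.6 in MycN). Mxd4 stood at 32.4 FPKM in Myc and 45.2 in MycN (0.47), Mxd1 at 1.89 and 2.76 (0.38) and Mxi1 at 12.1 and 15.0 (0.29). These 3 were below 2-fold, and none of their gaps has an error. Mnt differed by -0.26, Mga by 0.17, and the Mlx branch by 0.12 for Mlx and 0.02 for Mlxip. The third family member, Mycl1, was low in both, at 0.676 FPKM in Myc and 1.58 in MycN. Of 24 cofactors that bind Myc, 0 differed by 2-fold, against 4.69% of all genes, a share at which about 1 of 24 would do so. The ubiquitin ligase gene Huwe1, on the X chromosome, had the lowest value, -0.82, with 50.9 FPKM in Myc and 28.5 in MycN. The helicase gene Ruvbl2 followed with -0.66 (92.0 and 57.7 FPKM). Cdk9, the kinase that releases paused RNA polymerase, had the highest, 0.54 (20.9 and 30.7 FPKM).

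Of the 11640 genes, 227 (1.95%) were at least 2-fold higher in MycN than in Myc and 319 (2.74%) at least 2-fold lower, 546 (4.69%) in all. Values below 0 were found for 6565 genes and above 0 for 5072, and the median difference was -0.06. The middle 90% of genes lay between -0.77 and 0.66. Centred on the median, 266 genes (2.29%) were higher and 272 (2.34%) lower, 538 (4.62%) in all. The median moved with abundance. It was 0.08 for 3004 genes with a mean of 1 to 5 FPKM, -0.04 for 4722 genes of 5 to 20, -0.16 for 3199 genes of 20 to 100 and -0.27 for 715 genes from 100 FPKM up. Lists of highly expressed genes are to be read against those values.

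**Figure D1:**
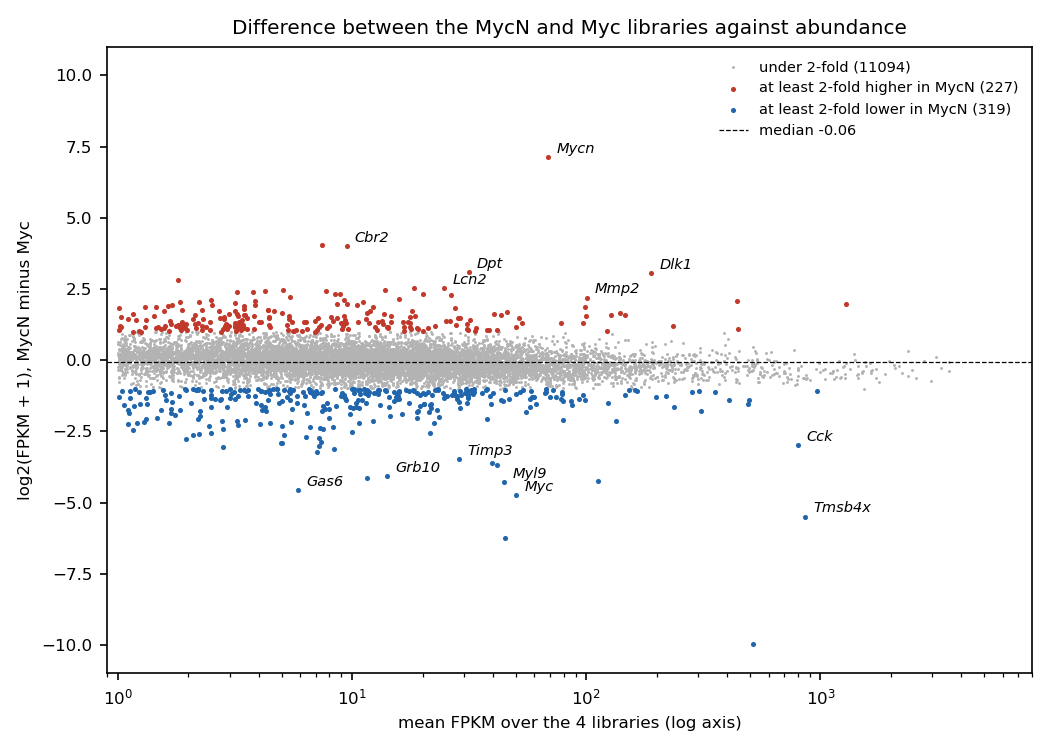
The vertical axis is the difference of log2(FPKM + 1), MycN minus Myc, and the log horizontal axis the mean FPKM over the 4 libraries; each point is 1 gene. Red points are the 227 genes at least 2-fold higher in MycN, blue points the 319 at least 2-fold lower, and the dashed line is the median of -0.06. The grey cloud tilts down from left to right, with Mycn at the top and Tmsb4x lowest on the right among genes above 0 in both libraries; the 2 unlabelled points lowest of all are genes listed at 0 in MycN.

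The size of the whole shift depended on the scale. The authors' second table multiplies all values of a library by 1 factor, 2.04 for Myc and 1.30 for MycN, which lowers MycN against Myc by 0.65 on the log2 scale. There the median difference was -0.67, and 99 genes (0.851%) were 2-fold or more above Myc and 2351 (20.2%) lower, 2450 (21%) in all. Setting both libraries to the same total over the genes kept gave a median of 0.13, with 360 genes higher and 197 lower. A gene up to about 0.65 higher in MycN by unscaled FPKM is therefore lower in the scaled table. For this reason, values of gene lists below are relative to the median of all genes, which is the same reference in each table.

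An independent readout was available for 30 genes on NanoString, which counts RNA molecules by hybridization. The NanoString signal was lower in MycN than in Myc for 29 of 30 genes, with a median ratio of 0.606. The unscaled FPKM ratio of the same genes had a median of 0.885 and was below 1 for 21, and the scaled FPKM ratio had a median of 0.564. The authors' factors are close to the mean NanoString ratio to vector, so the scaled values are not independent of this readout. B2m, the light chain of MHC class I, had the lowest NanoString ratio, 0.366, with a signal of 62438 in Myc and 22834 in MycN. Its unscaled FPKM went the other way, 911 in Myc and 1073 in MycN, whereas its scaled FPKM ratio was 0.750. Cltc, the clathrin heavy chain gene, had a NanoString ratio of 0.370 and an FPKM ratio of 0.695. Rpl10, a ribosomal protein gene of the X chromosome, had ratios of 0.435 and 0.639. At the other end stood the cyclin gene Ccnd2, with a NanoString ratio of 1.04, the cap-binding factor gene Eif4e with 0.942 and the cell cycle factor gene E2f2 with 0.925. Npm1, a nucleolar chaperone of ribosome assembly, was alike in both assays, at 0.544 by NanoString and 0.558 by FPKM. Across these 30 genes, which share both libraries, Pearson's r of the log2 ratios was 0.388 and Spearman's rho 0.428.

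**Figure D2:**
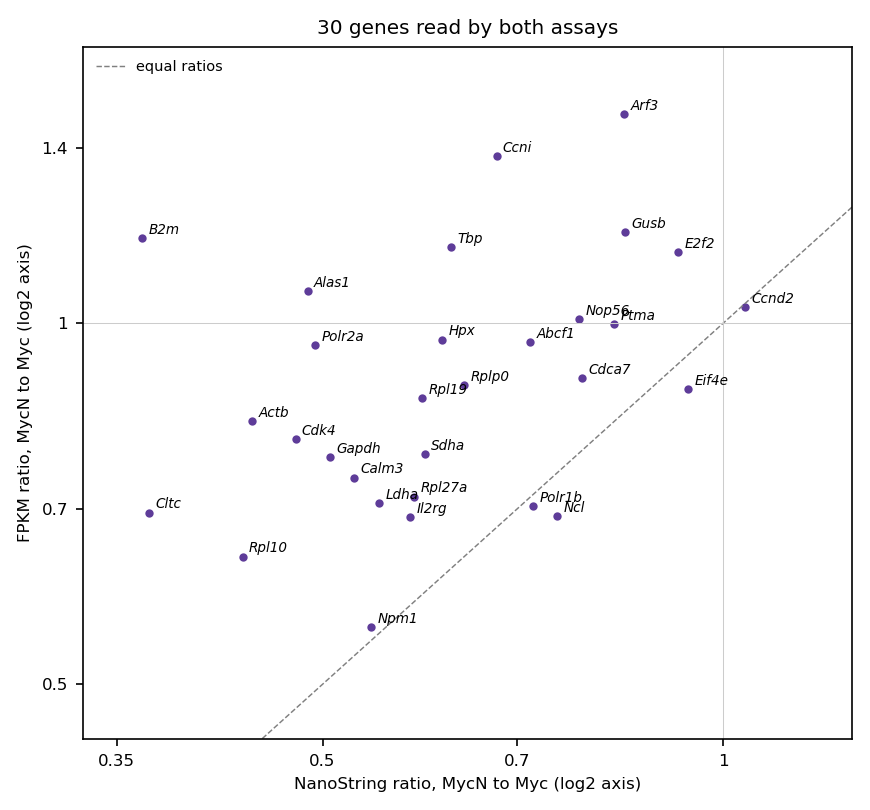
Each point is 1 of the 30 genes read by both assays, with the ratio of MycN to Myc by NanoString on the horizontal axis and by unscaled FPKM on the vertical axis, both log2 axes. For 26 of the 30 the FPKM ratio lies above the line of equal ratios, and B2m lies farthest from it.

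Genes of ribosome assembly were lower in MycN as a group by FPKM. Of 59 measured, 56 lay below the median of all genes, the list's median stood at -0.45 relative to it, and 2 were at least 2-fold lower, 3.39% against 2.74% of all genes. Heatr1, which takes part in transcription and processing of pre-ribosomal RNA, stood at 27.9 FPKM in Myc and 10.9 in MycN, with 7.84 in vector and 11 in Minimal Myc (-1.29). Rrp12, a factor of ribosome export, stood at 15.9, 7.29, 6.41 and 11 FPKM (-1.03). For both genes Myc was highest, and for Heatr1 the other 3 libraries lay close together. Pno1 (-1.0), the RNA helicase gene Ddx21 (-0.98) and the processome gene Utp20 (-0.93) came next. Npm1 stood at 1054, 588, 345 and 1187 FPKM (-0.84), so that by FPKM Minimal Myc was near the level of Myc. Its NanoString signal was 111489 in Myc, 60655 in MycN, 37173 in vector and 78556 in Minimal Myc. By that assay Minimal Myc lay between MycN and Myc. Nop56, a core protein of the small nucleolar complexes that methylate ribosomal RNA, was 221 FPKM in Myc and 222 in MycN, and Imp3 (0.12) and Rrp1b (0.08) were slightly above 0. By FPKM, the difference in this list was thus a modest one spread over its members. By NanoString, the ratio of MycN to Myc was 0.544 for Npm1, below the median of 0.606 over the 30 genes of that assay. Nop56 (0.779), Ncl (0.750) and the polymerase I gene Polr1b (0.720) lay above that median.

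RNA polymerases I and III, which make ribosomal and transfer RNA, differed by subunit. The list of 34 had a relative median of -0.14. Polr3g, the subunit of RNA polymerase III found in stem cells and tumours, was 7.75 FPKM in Myc and 3.34 in MycN, with 2.10 in vector and 2.61 in Minimal Myc (-1.01). Its alternative, Polr3gl, was 9.51, 12.7, 6.80 and 7.12 FPKM (0.39). The pair of alternative subunits thus stood on opposite sides of the median. Gtf3c6 (-0.83), Polr1a, the largest subunit of polymerase I (-0.73), Polr1e (-0.61) and Taf1b (-0.56) were the other low members.

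Protein synthesis genes showed the same order. Translation factors stood at -0.36 relative to all genes (41 of 46 below), ribosomal proteins at -0.37 (78 of 83 below) and mitochondrial ribosomal proteins at -0.23 (64 of 76 below). Among translation factors, Eif2s1, the alpha subunit of the factor that brings the initiator tRNA, was 36.7 FPKM in Myc and 18.8 in MycN (-0.93). Eif1ax, which lies on the X chromosome, was 290 and 151 FPKM (-0.93), and Eif4g2, an initiation factor that works without the cap, 107 and 56.5 (-0.92). The release factor gene Etf1 (-0.84) and Eef1e1 (-0.76) followed, and Pabpc1, the poly(A)-binding protein gene, was highest at 0.33. For Eif4g2 the vector value, 56.1 FPKM, and the Minimal Myc value, 53.4, were at the MycN level. Of the ribosomal proteins, Rpl26 (-1.45), Rpl22l1 (-1.19), Rpl34 (-1.04), Rps23 (-0.86) and Rps12 (-0.77) were lowest. Near-identical copies make single ribosomal protein values uncertain. Mrps6 was lowest of the mitochondrial ones, with 136 FPKM in Myc and 52.2 in MycN (-1.37), before Mrpl54 (-0.99), Mrps28 (-0.95), Mrps27 (-0.79) and Mrpl11 (-0.78).

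Transfer RNA synthetases were nearer to the rest, at -0.13 relative to all genes. Hars (-0.71), Rars (-0.67), Iars (-0.60) and Yars2 (-0.55) were lowest. Lars2, the mitochondrial leucine enzyme, was 273 FPKM in Myc and 1145 in MycN, but it is listed at 0 in vector, so its values are uncertain.

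Known growth targets of Myc, a list that overlaps the others, stood at -0.33, with 52 of 60 below the median. Pa2g4, a growth regulator that binds nucleolar RNA, was lowest (-1.49). Odc1, the rate-limiting enzyme of polyamine synthesis, stood at 212 FPKM in Myc and 112 in MycN, with 93.7 in vector and 104 in Minimal Myc (-0.92). Cad, which starts pyrimidine synthesis, stood at 55.2, 31.9, 16.6 and 26.0 (-0.77), and C1qbp, a mitochondrial protein, at 210, 120, 91.6 and 214 (-0.80). For Odc1 and Cad the Myc library alone was high, and for C1qbp Myc and Minimal Myc were. Ptma, a nuclear protein gene and classic Myc target, was equal at 1853 and 1849 FPKM, and the telomerase gene Tert (0.24) and the helicase subunit Mcm5 (0.26) were above 0. The growth targets are abundant, with a median level of 144 FPKM in Myc and 101 in MycN. Before centring, their median difference was -0.39, against -0.27 for all genes from 100 FPKM up. Housekeeping genes stood at -0.30 relative to all genes, close to the -0.33 of this list.

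The letters of the E-box were looked for, on both strands, in the 250 bases before the start of each gene as given by RefSeq on GRCm38.p6. They were present in 16 of 56 promoters of the growth target list (28.6%), 8 of 34 of the translation factor list (23.5%) and 7 of 34 of the nucleotide list (20.6%), against 934 of 9281 of all compared genes with an entry (10.1%) and 6.02% of all 32851 promoters in the table. Only 3 of 52 ribosome assembly promoters held them (5.77%). The shares were 5.98% of the genes at least 2-fold lower in MycN and 4.88% of those higher. Both proteins are known to bind these letters, so the promoters of the 2 lowest growth targets that hold them are shown, with the E-box in capitals. They are Prdx4, an antioxidant enzyme gene (chrX:155338461-155338710, minus strand), and Eif4a1, the RNA helicase of translation initiation (chr11:69672424-69672673, minus strand).
Prdx4: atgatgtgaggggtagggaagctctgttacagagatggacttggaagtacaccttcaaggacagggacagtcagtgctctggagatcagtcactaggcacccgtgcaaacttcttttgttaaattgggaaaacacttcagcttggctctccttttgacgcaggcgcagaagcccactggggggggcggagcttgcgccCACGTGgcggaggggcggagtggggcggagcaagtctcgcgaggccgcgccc
Eif4a1: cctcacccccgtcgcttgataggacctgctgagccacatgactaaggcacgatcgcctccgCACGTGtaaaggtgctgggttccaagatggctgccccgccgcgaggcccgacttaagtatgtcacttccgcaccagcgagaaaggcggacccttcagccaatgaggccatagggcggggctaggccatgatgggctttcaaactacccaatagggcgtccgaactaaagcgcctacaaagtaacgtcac
Prdx4 stood at 221 FPKM in Myc and 112 in MycN, with 76.9 in vector and 219 in Minimal Myc (-0.97). Eif4a1 stood at 538, 343, 246 and 614 FPKM (-0.65). In both, the MycN level lay between vector and Myc. Prdx4 lies in the stretch of the X chromosome described further on.

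Metabolic lists followed. Nucleotide synthesis stood at -0.35 (35 of 39 below the median), glycolysis and the pentose phosphate pathway at -0.36 (24 of 29) and polyamine metabolism at -0.33 (10 of 16). In nucleotide synthesis, the lowest were Ctps2, which makes CTP (15.8 FPKM in Myc and 5.65 in MycN, -1.34), and Guk1, a guanylate kinase (47.2 and 22.7 FPKM, -1.02). Hprt, which salvages purines, was 59.6 and 30.7 FPKM (-0.94), Prps2 20.3 and 10.8 (-0.86) and Ak4 14.7 and 7.82 (-0.83). Ctps2, Hprt and Prps2 lie on the X chromosome. In glycolysis, the lactate exporter gene Slc16a3 was the exception among the libraries, with 25.5 FPKM in Myc and 7.27 in MycN, with 29.6 in vector and 24.3 in Minimal Myc (-1.68). MycN alone was low there. Pfkl (-0.91), Taldo1 (-0.88) and Pdk1 (-0.81) were also low. The 5 members above the median of all genes included tissue isoforms. The neuronal enolase gene Eno2 stood at 13.1 FPKM in Myc and 24.7 in MycN (0.87). The muscle phosphofructokinase gene Pfkm stood at 26.0 and 42.2 (0.68) and the heart lactate dehydrogenase gene Ldhb at 11.4 and 18.6 (0.66). Of the polyamine enzymes, spermine synthase Sms (46.1 and 18.5 FPKM, -1.27) and the acetyltransferase gene Sat1 (109 and 52.2, -1.04) were lowest, and both lie on the X chromosome. Odc1 (-0.92), Mtap (-0.75) and Ahcy (-0.58) do not.

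Mitochondrial import stood at -0.19, with Hspa9 (-0.68), Timm13 (-0.67), Timm8a1 (-0.64), Phb (-0.63) and Timm10 (-0.51) lowest. The respiratory chain stood at -0.10, and Ndufs8, a complex I subunit, was its outlying member, at 127 FPKM in Myc and 58.6 in MycN (-1.10). Atp5d (-0.68), Uqcrb (-0.59), Ndufv1 (-0.55) and Uqcrq (-0.53) followed. Cytosolic chaperones stood at -0.30. The small heat shock gene Hspb1 was 20.3 FPKM both in Myc and in vector, 13.1 in Minimal Myc and 6.93 in MycN (-1.43), and the chaperonin genes Cct4 and Cct2 were both at -0.77. Dnajc2 (-0.74) and Ptges3 (-0.72) were close to them. In the endoplasmic reticulum list (-0.12), 19 of 29 genes lay below the median of all genes and 10 above. Sdf2l1 (-1.13), Pdia6 (-0.93), Dnajc3 (-0.90) and Hsp90b1 (-0.70) were lower, whereas the stress sensor gene Eif2ak3 was 5.17 FPKM in Myc and 8.30 in MycN (0.59). Serine, folate and amino acid stress genes stood at -0.15, from Stc2 (-1.26) and Atf5 (-0.96) to Slc38a2 (0.63) and Gpt2, an alanine aminotransferase gene (0.98). Housekeeping genes, often used as references, stood at -0.30. Their lowest values were those of Hprt (-0.94), Vps29 and Pgk1 (both -0.71), Snrpd3 (-0.65) and Gpi1 (-0.63).

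Cell cycle genes lay near the median of all genes. DNA replication stood at -0.08 relative to all genes, mitosis at -0.17 and G1 cyclins with E2F at -0.07, and of these 46, 47 and 22 genes 0 differed by 2-fold, against 4.69% of all genes. Gins1 (-0.73), Rpa1 (-0.70), Pold2 and Gmnn (both -0.55) were lowest in replication and Gins3 (0.35) among the highest. The kinetochore gene Spc24 (-0.73), Cdca8 and Kif20a (both -0.60), Nek2 (-0.57) and Pttg1 (-0.49) were lowest in mitosis. Cyclin D1, Ccnd1, stood at 114 FPKM in Myc and 65.0 in MycN, with 81.9 in vector and 57.7 in Minimal Myc (-0.80), the largest difference in the G1 list. E2f6 and E2f8 (both -0.39) and E2f3 (-0.36) were next, and Rbl2, a pocket protein that holds back E2F, was 0.44. Cdk inhibitors and p53 targets had a relative median of 0.01. Trp53inp1 (0.79) and Phlda3 (0.69) were highest there, and Aen, Ei24 and Ccng1 (each -0.82) lowest.

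**Figure D3:**
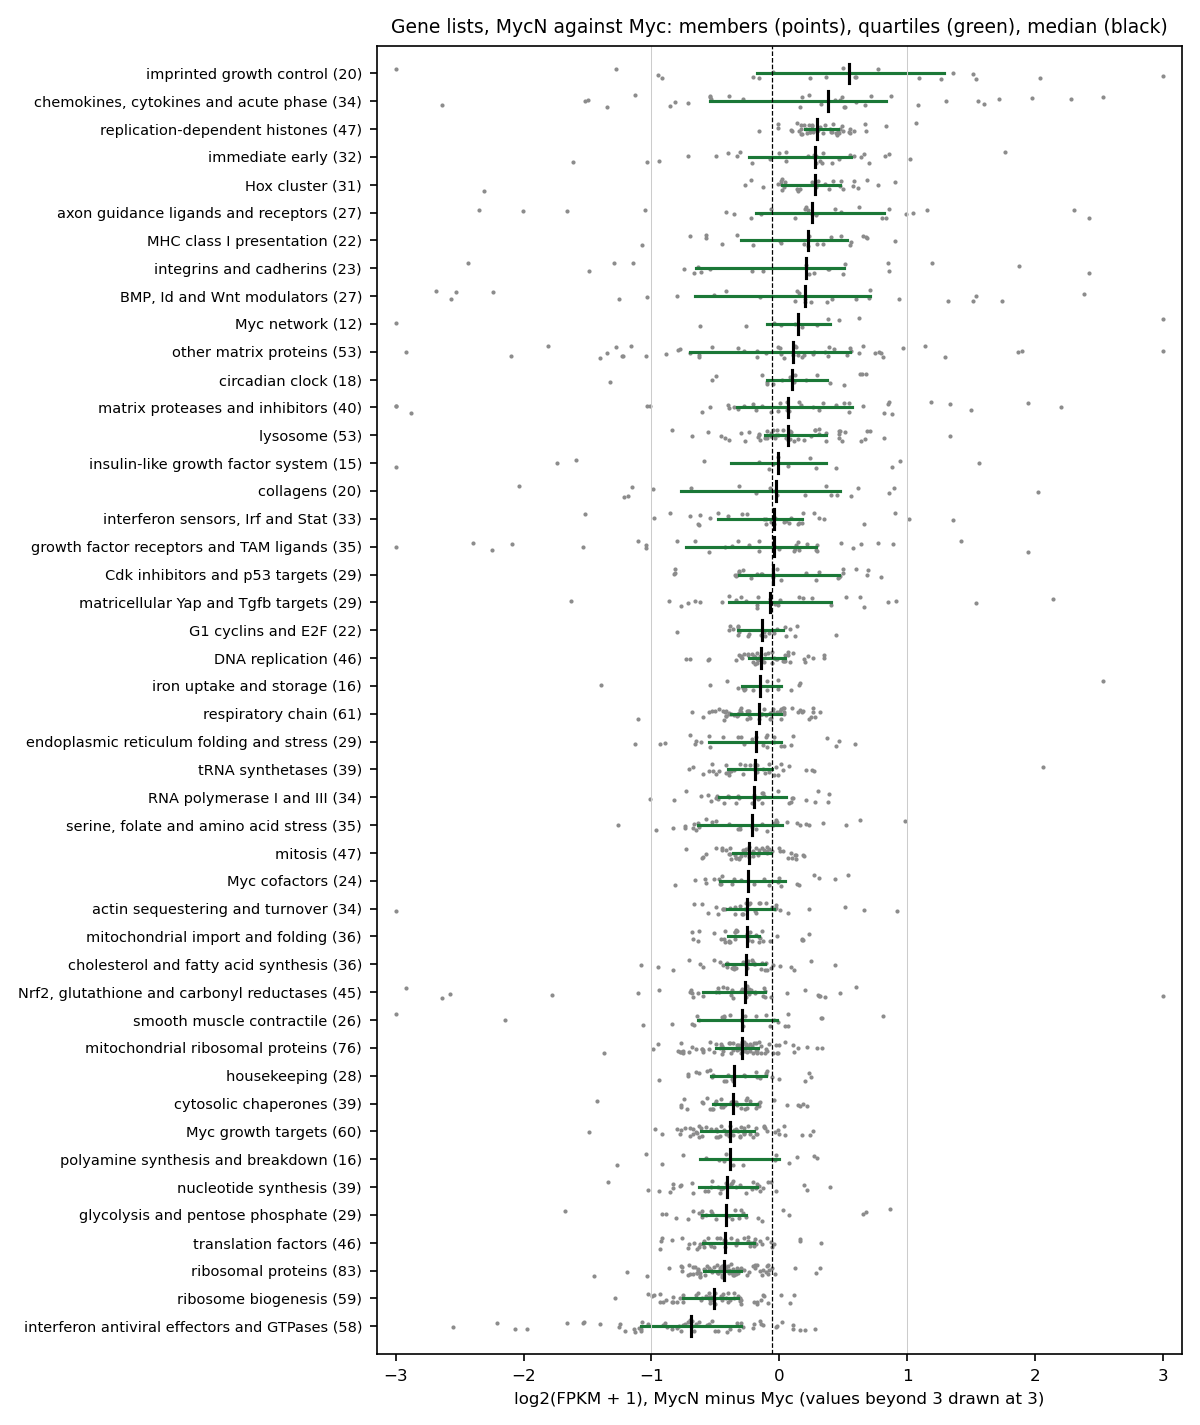
Each row is 1 of 46 gene lists with its number of measured genes. Grey points are genes, the green line spans the quartiles, the black tick is the median and the dashed line the median of all 11640 genes, on the axis of log2(FPKM + 1) in MycN minus Myc, where values beyond 3 are drawn at 3. Interferon effectors and ribosome assembly genes lie farthest to the left, imprinted genes and cytokines farthest to the right, and histones and ribosomal proteins have narrow spreads.

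Interferon-induced antiviral effectors were the list that stood lowest in MycN. Interferons act through a complex of Stat proteins and Irf9 on a promoter element, the ISRE. Of 58 measured genes, 50 lay below the median of all genes, 18 (31.0%, against 2.74% of all genes) were at least 2-fold lower and 0 at least 2-fold higher, and the relative median was -0.63. The typical gene was low in Myc and lower in MycN. The median of the list was 3.92 FPKM in Myc and 1.60 in MycN, with 3.56 in vector and 36.3 in Minimal Myc. Levels in Myc were thus at those of vector, and Minimal Myc was far above all 3. Oas1a, which makes a messenger that activates RNase L, stood at 5.63 FPKM in Myc and 0.439 in MycN, with 3.54 in vector and 80.0 in Minimal Myc (-2.2). Ifi27l2a was 29.3, 4.16, 11.7 and 40.5 FPKM (-2.56). Usp18, which removes Isg15 from proteins and damps the interferon receptor, was 7.33, 0.988, 5.74 and 136 FPKM (-2.07). In each, MycN was the lowest of the 4 libraries and Minimal Myc the highest. Zbp1, a sensor of left-handed nucleic acids (-1.66), and Oas1g (-1.97) had the same lowest and highest library. Oas1a and Oas1g are near-identical genes, so reads may be split between them. At the other end, Ly6e (0.28), Ifitm2 (0.20) and Ifit2 (0.11) were higher in MycN by unscaled FPKM, by less than the 0.65 that the scaled table takes away.

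The regulators above those effectors did not form 1 group. The list of sensors, Irf and Stat genes had a relative median of 0.02 over 33 genes. Irf7, the amplifier of the interferon response, stood at 3.83 FPKM in Myc and 0.685 in MycN, with 7.41 in vector and 58.3 in Minimal Myc (-1.52). Irf9 stood at 10.0, 4.58, 6.26 and 36.1 FPKM (-0.98) and Stat2 at 7.35, 4.14, 4.64 and 35 (-0.70). These 3 had MycN lowest, as the effectors had. Irf5 was opposite, at 5.92, 16.8, 2.52 and 7.99 FPKM (1.36), as was the bacterial lipoprotein receptor gene Tlr2 at 4.57, 10.2, 2.27 and 5.41 (1.01). Both were highest in MycN. Nlrc5, the transactivator of MHC class I genes, was 3.65 FPKM in Myc and 7.70 in MycN (0.90).

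The core letters of the ISRE, GAAANNGAAA on either strand, were found in 20 of 43 promoters of the effector list (46.5%), against 3.19% of the compared genes with an entry and 2.98% of all promoters. Of the genes at least 2-fold lower in MycN, 23 of 234 promoters held them (9.83%), and of those higher 4 of 164 (2.44%). The effector list was not chosen without knowledge of these genes, and its members are known as ISRE genes. The promoters of Oas1a (chr5:120907526-120907775, minus strand) and Ifit3 (chr19:34583279-34583528, plus strand) are shown because both are among the lowest members. Capitals mark the ISRE letters, which in Oas1a are 2 overlapping matches and in Ifit3 lie on the opposite strand.
Oas1a: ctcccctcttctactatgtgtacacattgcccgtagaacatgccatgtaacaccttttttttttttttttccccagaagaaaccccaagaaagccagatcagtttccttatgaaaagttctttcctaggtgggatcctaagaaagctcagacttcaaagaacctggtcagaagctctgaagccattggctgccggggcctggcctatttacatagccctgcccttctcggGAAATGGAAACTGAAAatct
Ifit3: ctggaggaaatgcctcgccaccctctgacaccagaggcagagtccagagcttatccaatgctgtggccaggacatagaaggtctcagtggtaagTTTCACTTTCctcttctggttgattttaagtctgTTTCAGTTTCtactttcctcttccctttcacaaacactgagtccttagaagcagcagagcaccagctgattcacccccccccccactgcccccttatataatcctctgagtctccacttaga
Ifit3, which helps Ifit1 to hold viral RNA, stood at 7.68 FPKM in Myc and 2.0 in MycN, with 6.6 in vector and 141 in Minimal Myc (-1.54).

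MHC class I presentation stood above the median, at 0.29, beside a shift of the chromosome that holds several of its genes. The class I genes H2-Q4 and H2-K1 and the transporter gene Tap2 lie on chromosome 17, whose genes as a whole stood at 0.24 relative to all genes. Centred on the chromosome, the list's median was 0.08. H2-Q4 was 41.1 FPKM in Myc and 66.9 in MycN (0.69), H2-L 6.32 and 10.7 (0.68) and the peptide transporter gene Tap2 10.9 and 17.8 (0.65). The immunoproteasome gene Psmb10 was opposite, at 37.2 FPKM in Myc and 17.2 in MycN, with 14.3 in vector and 56.3 in Minimal Myc (-1.07). Class I genes have near-identical copies, so their single values are uncertain.

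Chemokines, cytokines and acute phase genes divided. Their relative median was 0.44 over 34 genes, with 8 at least 2-fold higher in MycN (23.5%, against 1.95% of all genes) and 5 lower (14.7%, against 2.74%). Lcn2, a secreted protein that binds bacterial siderophores, stood at 8.73 FPKM in Myc and 55.2 in MycN, with 4.04 in vector and 31.0 in Minimal Myc (2.53). C3, the central complement component, stood at 15.0, 76.9, 8.33 and 5.91 FPKM (2.28), and the membrane-bound chemokine gene Cx3cl1 at 5.47, 24.5, 2.90 and 1.60 (1.98). For C3 and Cx3cl1 MycN was the only library with a high level. The acute phase inhibitor genes Serpina3n and Serpina3g were on opposite sides. Serpina3n stood at 1.36, 6.77, 0.408 and 2.23 FPKM (1.72), and Serpina3g at 9.38, 0.664, 0.102 and 10.4 (-2.64). Other values, named here because they show the range and chosen after being seen, were 1.55 for Cxcl10, 1.60 for Cxcl5 and 1.08 for Cxcl1, but -1.50 for Il6, -1.52 for Il33, -1.35 for Ptgs2 and -1.13 for Ccl7. Cxcl10, which interferon also induces, was thus on the other side from the antiviral effectors.

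Contractile and actin genes held some of the largest single differences. Tmsb4x, thymosin beta 4, binds actin monomers and is one of the most abundant messages of fibroblasts. It stood at 1462 FPKM in Myc and 31.4 in MycN, with 685 in vector and 1252 in Minimal Myc, a difference of -5.49 and an FPKM ratio of 46.5 between Myc and MycN. The other 3 libraries lay far above MycN. Tmsb4x has near-identical copies in the genome, which makes its single value uncertain, and it lies in a stretch of the X chromosome in which most genes were lower, though by far less. Other actin-binding genes were on both sides, with profilin Pfn1 at 865 FPKM in Myc and 543 in MycN (-0.67), and Gsn, the actin-severing gelsolin (0.92), Pfn2 (0.66) and the bundling protein gene Fscn1 (0.51) higher. The list stood at -0.19.

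Of the smooth muscle contractile genes, Myl9, a myosin regulatory light chain, stood at 82.9 FPKM in Myc and 3.30 in MycN, with 33.3 in vector and 59.2 in Minimal Myc (-4.28). Tagln, an actin-binding protein of smooth muscle, stood at 133, 29.4, 147 and 226 FPKM (-2.14), and Cnn2, a calponin, at 204, 97.0, 124 and 235 (-1.07). MycN was lowest of the 4 in all 3. Acta2, smooth muscle actin, was 231 FPKM in Myc and 129 in MycN (-0.84). The list of 26 stood at -0.23 with 3 genes at least 2-fold lower (11.5%, against 2.74% of all genes), and Csrp1 was highest (0.81). Tpm2 (0.32), Tpm4 (0.07) and Smtn (-0.01) stood near the median, so the list did not share 1 side. The transcription factor of these genes, Srf, was 23 FPKM in Myc and 29.2 in MycN (0.33), and its coactivator Mkl1 18.9 and 19.9 (0.07). The element that Srf binds, the CArG box, was found in 5 of 23 contractile promoters (21.7%), against 1.42% of compared genes and 1.47% of all promoters. The promoters of Myl9 (chr2:156775214-156775463, plus strand) and Cnn2 (chr10:79988350-79988599, plus strand) are shown as the lowest members that hold it, with the CArG box in capitals.
Myl9: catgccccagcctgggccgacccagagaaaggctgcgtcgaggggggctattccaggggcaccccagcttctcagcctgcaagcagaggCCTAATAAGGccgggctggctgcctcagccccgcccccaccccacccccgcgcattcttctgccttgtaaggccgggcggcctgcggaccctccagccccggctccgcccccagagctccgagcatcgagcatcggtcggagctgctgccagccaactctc
Cnn2: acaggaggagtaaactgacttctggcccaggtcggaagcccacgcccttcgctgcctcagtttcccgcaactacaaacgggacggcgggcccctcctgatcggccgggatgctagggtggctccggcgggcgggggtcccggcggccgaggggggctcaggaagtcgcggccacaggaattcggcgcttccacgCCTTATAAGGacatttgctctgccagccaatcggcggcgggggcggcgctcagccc

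**Figure D4:**
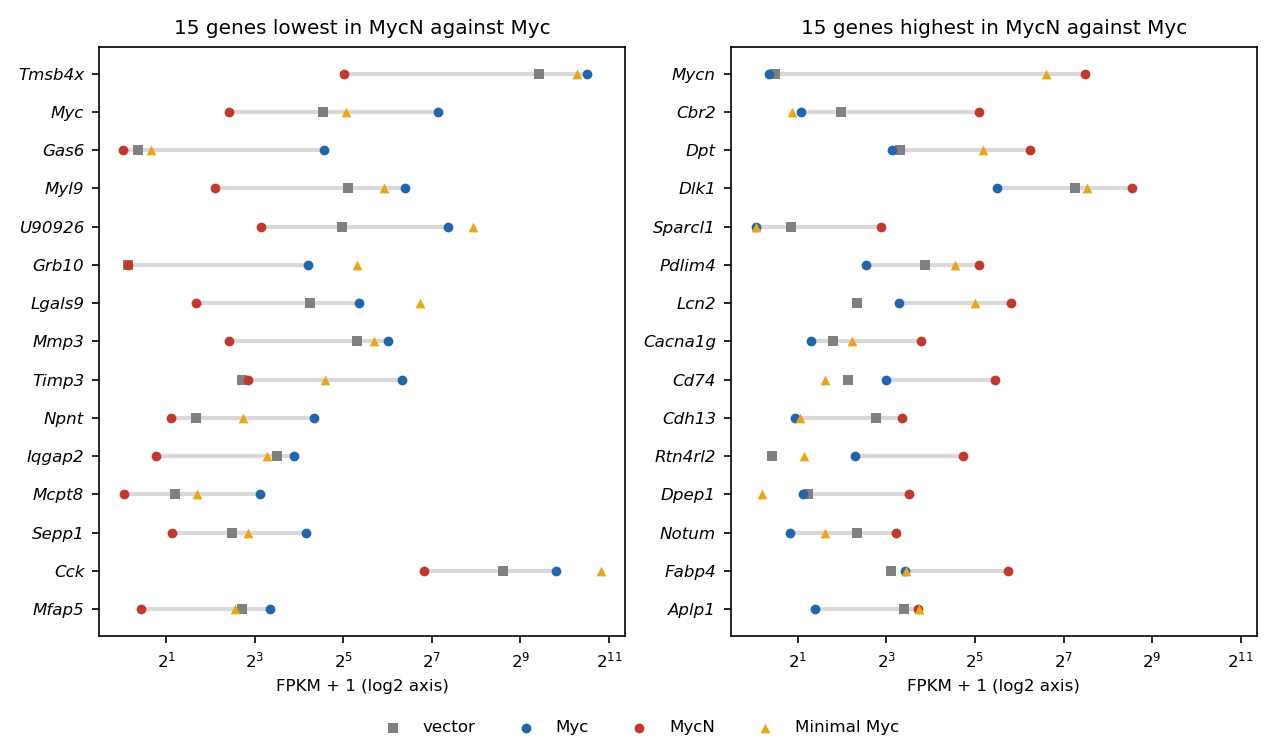
The 15 genes with the lowest and the 15 with the highest difference, by the naming rule, are drawn with their level in each of the 4 libraries on a log2 axis of FPKM + 1; the grey bar joins Myc (blue) and MycN (red). For Myl9 and Mmp3 MycN alone is low, for Gas6 Myc alone is high, and for Cd74 and Dpep1 MycN alone is high.

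Matrix genes were spread widely in both directions. Collagens stood at 0.03 relative to all genes, and of 20 measured 4 were 2-fold or more lower (against 2.74% of all genes) and 1 higher (against 1.95%). The basement membrane collagens Col4a1 (56.2 FPKM in Myc and 24.8 in MycN, -1.15) and Col4a2 (37.8 and 15.7, -1.22) share a promoter and stood together. Col7a1 (-1.19) and Col11a1 (-2.03) were also lower. Col5a3 was opposite, at 1.24 FPKM in Myc and 8.10 in MycN, with 2.52 in vector and 0.847 in Minimal Myc (2.02). The other matrix proteins stood at 0.17, with 10 of 53 lower (18.9%, against 2.74%) and 5 higher (9.43%, against 1.95%). Dpt, dermatopontin, stood at 7.77, 74.2, 8.97 and 35 FPKM (3.10), Smoc2 at 0.373, 4.12, 0.727 and 1.36 (1.90) and Fmod, a collagen-binding proteoglycan, at 0.474, 4.39, 0.279 and 0.0677 (1.87). The microfibril gene Mfap5 was 9.20, 0.344, 5.51 and 4.92 FPKM (-2.92), and Lama4, a laminin chain, 5.48, 0.514, 0.180 and 7.84 (-2.10). For Mfap5 only MycN was low, whereas for Lama4 vector was low too.

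Matrix proteases split by type. The list stood at 0.13, and 5 of its 40 genes were 2-fold or more higher (against 1.95% of all genes) and 5 lower (against 2.74%). After centring on the median these were 5 and 3. Mmp2, gelatinase A, stood at 45.8 FPKM in Myc and 214 in MycN, with 56.3 in vector and 86.0 in Minimal Myc (2.2), and Adamts2, which trims procollagen, at 0.513, 4.84, 1.61 and 3.14 (1.95). The stromelysins were lower. Mmp3 stood at 64.0, 4.36, 38.8 and 51.2 FPKM (-3.60) and Mmp10 at 12.2, 0.795, 7.10 and 9.48 (-2.88). Both stromelysins were low in MycN alone. Timp3, an inhibitor of these enzymes, stood at 79.1, 6.26, 5.56 and 23.2 FPKM (-3.46), so that here vector and MycN were alike and Myc was high. Among matricellular, Yap and Tgfb targets, whose relative median was -0.02, Wisp2 (2.14), Smad6 (1.54), Tgfb3 (0.92) and Ctgf (0.85) were higher and Thbs1, thrombospondin 1, was 223 FPKM in Myc and 71.5 in MycN (-1.63).

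Growth factor signalling held some genes that were high in Myc alone. Gas6, the ligand of the Axl, Tyro3 and Mertk receptors, stood at 22.7 FPKM in Myc and 0.0134 in MycN, with 0.298 in vector and 0.574 in Minimal Myc (-4.55). Erbb3, a receptor of neuregulins, stood at 4.09, 0.0700, 0.0272 and 0.218 FPKM (-2.25). For both, the Myc library alone was high. The receptor gene Egfr stood at 16, 2.23, 2.98 and 8.0 FPKM (-2.39), and Fgf7, a growth factor for epithelial cells, at 96.3, 21.8, 37.3 and 162 (-2.09). Ephb2, an ephrin receptor, was low in Myc only, at 0.707, 5.58, 4.59 and 4.48 FPKM (1.95). Of 35 genes in the list, 8 were at least 2-fold lower (22.9%, against 2.74% of all genes) and 2 higher (5.71%, against 1.95%). After centring, 6 were lower and 2 higher, and the relative median was 0.02, or -0.09 when centred on the chromosome.

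The insulin-like growth factor system shared Grb10 with the imprinted list. Imprinted genes are read from 1 parental copy, and many of them set growth of the embryo. Grb10, an imprinted adaptor that restrains the insulin and Igf1 receptors, stood at 17.5 FPKM in Myc and 0.105 in MycN, with 0.0977 in vector and 38.7 in Minimal Myc (-4.06). It was on in Myc and Minimal Myc and nearly off in the others. Igf1 stood at 3.44, 0.329, 0.991 and 1.34 FPKM (-1.74), Igfbp4 at 3.75, 0.573, 1.22 and 28.7 (-1.59) and Igfbp3 at 7.88, 25.3, 1.44 and 39.8 (1.56). The receptor gene Igf1r was alike in both, with a difference of -0.08, and the receptor substrate gene Irs2 was 0.95. The imprinted list had the highest relative median of all, 0.61, with 7 of 20 genes 2-fold or more higher (35%, against 1.95% of all genes) and 2 lower (10.0%, against 2.74%). Dlk1, which keeps precursor cells from becoming fat cells, stood at 44.0, 375, 151 and 185 FPKM (3.06). Sgce stood at 2.36, 12.8, 13.5 and 15.8 FPKM (2.04) and its neighbour Peg10 at 2.13, 7.98, 3.36 and 4.22 (1.52). Plagl1, a zinc finger regulator of imprinted genes, stood at 0.186, 2.44, 2.16 and 0.920 FPKM (1.54). In Sgce and Plagl1 it was the Myc library that was low. The imprinted median was 0.03 when genes below 1 FPKM were let in.

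Modulators of BMP and Wnt signalling stood on both sides. The list stood at 0.26, and of its 27 genes 5 were higher (18.5%, against 1.95% of all genes) and 6 lower (22.2%, against 2.74%) by 2-fold or more. Lower were the secreted genes Bmper (10.2 FPKM in Myc and 0.750 in MycN, -2.68), Sfrp2 (8.40 and 0.582, -2.57), Sfrp1 (5.58 and 0.138, -2.53) and Dkk3 (6.04 and 0.491, -2.24). Bmper and Dkk3 were also expressed in vector, at 4.21 and 3.27 FPKM, whereas Sfrp1 and Sfrp2 were low there, at 0.198 and 0.594. Higher was Notum, an enzyme that inactivates Wnt, at 0.773 FPKM in Myc and 8.27 in MycN, with 4.02 in vector and 2.06 in Minimal Myc (2.39). The 4 Id genes, which BMP is known to induce, are named after their values were seen. Id1 was 336 FPKM in Myc and 645 in MycN (0.94), Id2 54.0 and 136 (1.32), Id3 328 and 438 (0.41) and Id4 5.23 and 19.9 (1.74). Id2 and Id4 were past 2-fold, and Id3 is lower in the scaled table.

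Guidance and adhesion genes showed the same spread without a common side. In the axon guidance list, Sema3c (14.0 FPKM in Myc and 1.96 in MycN, -2.35), Slit2 (29.7 and 6.65, -2.01) and Sema3a (13.0 and 3.42, -1.66) were lower. Rtn4rl2, a receptor of the Nogo family (3.92 and 25.4, 2.42), and Sema3f (3.83 and 22.9, 2.31) were higher. Among 23 integrins and cadherins, the laminin receptor subunit Itga6 stood at 12.1 FPKM in Myc and 1.42 in MycN, with 13.2 in vector and 3.40 in Minimal Myc (-2.43) and N-cadherin, Cdh2, at 34.5, 11.6, 46.8 and 30.7 (-1.49). Cdh13, a cadherin without a cytoplasmic part, stood at 0.911, 9.27, 5.81 and 1.06 (2.43), Mcam at 3.17, 14.3, 25.7 and 5.85 (1.87) and Alcam at 1.15, 3.91, 6.47 and 1.54 (1.19). For those 3 the vector library was nearer to MycN than to Myc. The relative median of this list, 0.27, went to -0.02 when centred on the chromosome and at a filter of 5 FPKM, so it has no stable side.

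Hox genes and replication-dependent histones stood slightly above the rest. Hox genes, which record body position, had 27 of 31 members above the median and a relative median of 0.34, from Hoxc13 (0.91), Hoxa5 (0.77), Hoxb5 (0.69) and Hoxa6 (0.62) down. Hoxa11 broke from its cluster, at 4.52 FPKM in Myc and 0.115 in MycN, with 1.62 in vector and 3.59 in Minimal Myc (-2.31). Replication-dependent histones, whose messages lack a poly(A) tail, had 46 of 47 members above the median and a relative median of 0.36, which was 0.56 when centred on the chromosome. Hist1h2bg (1.07), Hist1h4i (0.83), Hist2h4 (0.68), Hist1h1b (0.67) and Hist1h4c (0.59) led. The median histone gene stood at 2.37 FPKM in Myc and 3.54 in MycN, with 5.38 in vector and 1.68 in Minimal Myc. The protocols describe poly(A) selection, which messages without a tail should not pass. The summed FPKM of all small RNA genes, before the filter, had the same order over the libraries. It was 73283 in Myc and 91983 in MycN, with 230044 in vector and 59268.5 in Minimal Myc. What part selection or small RNA has in the histone values was not tested. Histone genes have near-identical copies, which makes single values uncertain.

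Immediate early genes, which respond within minutes to serum, stood at 0.34. Fos was 1.65 FPKM in Myc and 7.99 in MycN, with 3.98 in vector and 3.93 in Minimal Myc (1.76), Junb 88.7, 181, 81.3 and 140 (1.02) and Dusp1 16.9, 31.4, 23 and 11.7 (0.86). The nuclear receptor gene Nr4a2 (-1.61) and Klf2 (-1.04) were opposite. Lysosomal genes stood at 0.12, with Ctsk (1.34), the channel gene Mcoln1 (0.82), Ctsb (0.71) and Neu1 (0.68) above. Their promoters held the E-box letters in 15 of 43 cases (34.9%). Those letters are also the core of the element that the lysosomal regulator Tfeb binds. Clock genes stood at 0.16, with Dbp (0.68), Per2 (0.65), Nr1d1 (0.63) and Csnk1e (0.50) above and Hlf (-1.33) below.

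Redox and iron genes included some strong single differences. The Nrf2, glutathione and carbonyl reductase list stood at -0.21, and 5 of its 45 genes were 2-fold or more lower (11.1%, against 2.74% of all genes). Cbr2, a carbonyl reductase, stood at 1.11 FPKM in Myc and 33 in MycN, with 2.94 in vector and 0.811 in Minimal Myc (4.01). Gpx7 stood at 8.41, 0.243, 0.103 and 11.3 FPKM (-2.92), which is the order of Grb10. Aldh1a1 (6.08 FPKM in Myc and 0.137 in MycN, -2.64) and its near-identical neighbour Aldh1a7 (5.94 and 0.164, -2.58) cannot be fully told apart by reads. Gsto1, a glutathione transferase, stood at 499, 145, 266 and 327 FPKM (-1.78). Of the iron genes, with a relative median of -0.09, the reductase gene Steap1 stood at 54.5, 20, 18.9 and 79.6 FPKM (-1.40), before Aco1 (-0.54), Cp (-0.41) and Cisd1 (-0.33). Sterol and fatty acid synthesis stood at -0.20, with Idi1 (-1.08), Acaca (-0.83) and Mvk (-0.71) among the lowest.

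Among the most extreme genes not yet described, the peptide hormone gene Cck stood at 891 FPKM in Myc and 113 in MycN, with 390 in vector and 1820 in Minimal Myc (-2.97). Lgals9, galectin 9, stood at 39.8, 2.18, 18.1 and 106 (-3.68), and U90926 at 164, 7.81, 30.2 and 245 (-4.23). These 3 had Minimal Myc highest and MycN lowest. Npnt, an integrin ligand (-3.23), Iqgap2, a scaffold protein (-3.11), the protease gene Mcpt8 (-3.07) and Sepp1, a selenium carrier (-3.02), complete the lowest 15. On the high side, Sparcl1, a matricellular protein, stood at 0.0452, 6.33, 0.789 and 0.0347 FPKM (2.81), the calcium channel gene Cacna1g at 1.47, 12.7, 2.46 and 3.65 (2.47) and Pdlim4, an actin-associated protein, at 4.84, 32.8, 13.6 and 22.4 (2.53). Cd74, the invariant chain of MHC class II, stood at 6.96, 42.9, 3.39 and 2.06 FPKM (2.46). Its class II partners were near 0, with H2-Ab1 at 0.0443 FPKM in Myc and 0.291 in MycN. Fabp4, a fatty acid binding protein of fat cells, stood at 9.75, 53, 7.61 and 9.80 FPKM (2.33). The summed level of 10 adipocyte markers was 30.4 FPKM in Myc, with Lpl highest, and 68.8 in MycN, with Fabp4 highest. Of the 3 that passed the filter, Lpl, the lipase that frees fatty acids from lipoproteins, was lower in MycN, at 19.7, 8.12, 8.03 and 15.7 FPKM (-1.18), and Plin4, a lipid droplet protein, was higher, at 0.702, 5.94, 1.99 and 0.243 (2.03). Pparg, which directs fat cell formation, was 0.131 and 1.57 FPKM, Adipoq 0.0284 and 0.0727, and Lep is listed at 0 in both. Dpep1 (2.39), Aplp1 (2.32), Rtn4rl2 and Notum were also among the highest 15.

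Genes that crossed from off to on were few. Taking at least 5 FPKM as on and under 0.5 but above 0 as off, 14 genes were on in Myc and off in MycN, and 3, Mycn, Sparcl1 and Lbx1, the reverse. Besides Gas6, Grb10, Gpx7, Mcpt8, Mfap5, Aldh1a1, Aldh1a7, Sfrp1, Oas1a and Dkk3, the 14 include Sorcs1 (5.83 FPKM in Myc and 0.00911 in MycN), Slco2a1 (5.25 and 0.341), Tspan18 (5.09 and 0.307) and C130026I21Rik (5.93 and 0.355). A value of 0 can be a failed estimate, so genes at 0 were left out of these counts. Acin1 and Rn45s are listed at 0 in MycN and Cep250 in Myc.

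Where the other libraries stood differed between the genes lower and those higher in MycN. Both comparisons share the Myc and MycN libraries, so these are counts of position only. They use unscaled FPKM, in which small RNA genes, before the filter, summed to 230044 in vector and 73283 in Myc. The compared genes summed to 325658 in vector and 520918 in Myc. The part of these totals in the counts was not tested. Of the 319 lower genes, vector was nearer to MycN and Minimal Myc nearer to Myc for 134 (42.0%, against 32.1% of all genes that differed), and both were nearer to Myc, so that MycN stood apart, for 103 (32.3%). Both were nearer to MycN, so that Myc stood apart, for 62 (19.4%). Of the 227 higher genes, MycN stood apart for 103 (45.4%) and Myc for 39 (17.2%). Vector was nearer to Myc and Minimal Myc nearer to MycN for 53 of them (23.3%, against 13.4% of all). Over all genes that differed, MycN stood apart for 30.2% and Myc for 24.4%.

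Position in the genome was read from the order of genes in RefSeq, with 11624 of 11640 genes placed, and the regions below were chosen after their values were seen. Toward the end of the X chromosome most genes were lower in MycN. Windows held 15 genes each, and the last window of a chromosome also took the remaining genes, which made 26 on the X chromosome. Of the 86 genes in its last 5 windows, 27 (31.4%) were at least 2-fold lower, with a median difference of -0.67. Of the other 270 genes, 9 (3.33%) were, with a median of -0.12. The 21 genes from Mum1l1 to Il13ra2 had a median of -0.07, and the 63 genes that follow, from Lrch2 to Hccs, had a median of -0.95, with 59 below 0. Hsd17b10, a mitochondrial dehydrogenase, stood at 154 FPKM in Myc and 51.2 in MycN, with 36.5 in vector and 105 in Minimal Myc (-1.57). Pdha1, the entry enzyme of pyruvate to the citric acid cycle, stood at 114, 45.7, 36.6 and 101 FPKM (-1.29), Rbbp7, a histone-binding protein, at 212, 102, 76.5 and 217 (-1.05) and the cohesin gene Smc1a at 66.0, 31.2, 24 and 57.9 (-1.06). Sms, Sat1, Ctps2, Prps2, Huwe1, Eif1ax and Prdx4 lie in the same stretch.

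Read against the rest of the X chromosome, it was the Myc library that stood apart there. From Lrch2 to Hccs the median difference from Myc, less that of the rest of the chromosome, was -0.75 in vector, -0.83 in MycN and -0.76 in Minimal Myc, 3 values that share the Myc library. The rest of the X chromosome stood 0.65 higher in Minimal Myc than in Myc. Without that subtraction, the median differences of the stretch from Myc were -1.17 in vector, -0.95 in MycN and -0.12 in Minimal Myc. By level, Minimal Myc was thus near Myc there, and which library stood apart depended on the reference. Xist, the RNA that coats the inactive X chromosome, stood at 67.1 FPKM in Myc and 79.9 in MycN, with 134 in vector and 81.6 in Minimal Myc. Without the 86 genes 226 genes were higher and 292 lower, and 1 list median moved by more than 0.1, that of the collagens, to 0.15.

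**Figure D5:**
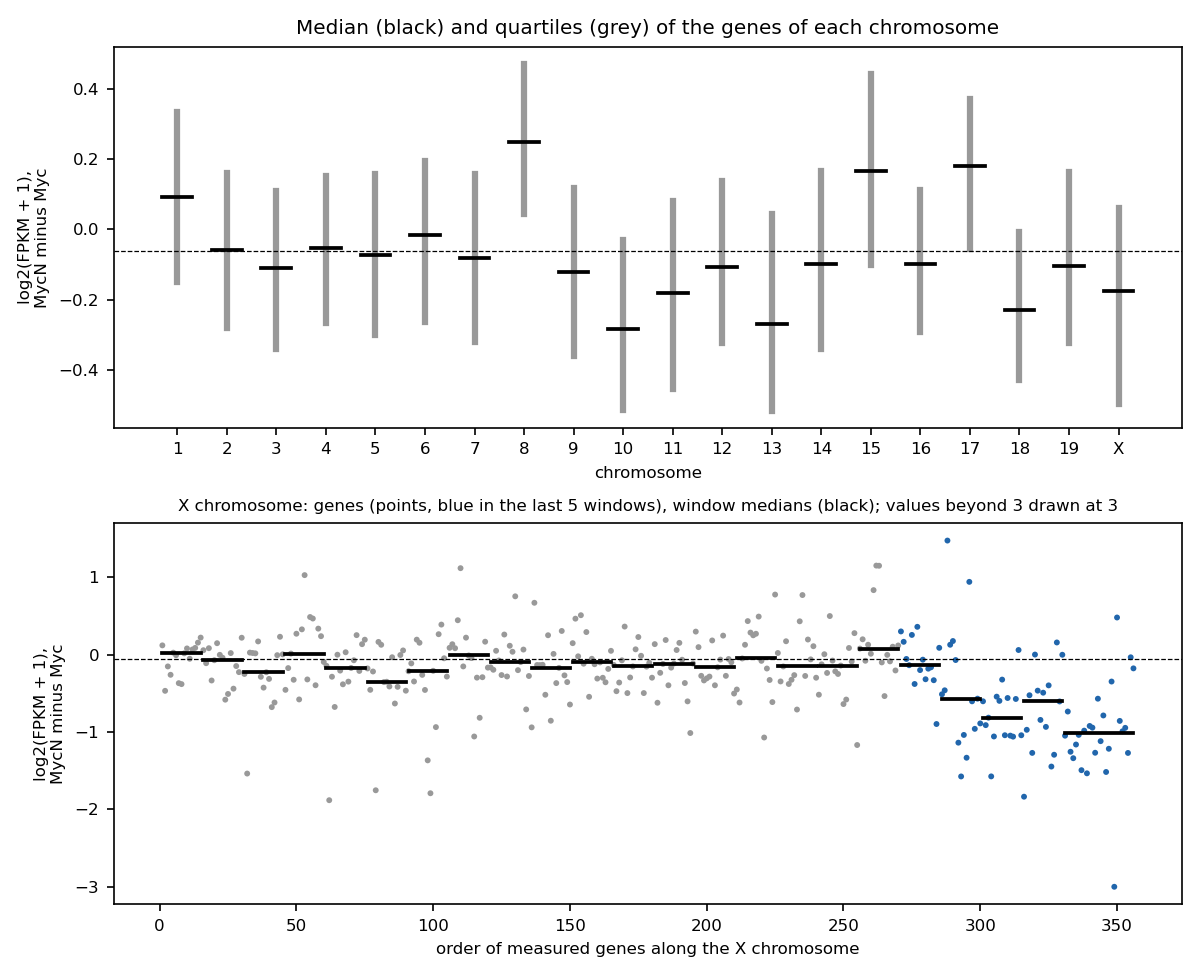
The upper panel gives the median (black) and quartiles (grey) of the difference of log2(FPKM + 1), MycN minus Myc, for the genes of each chromosome. The lower panel gives the genes of the X chromosome in order, with medians of windows of 15 genes, the last of 26. The dashed line is the median of all genes. Chromosome 8 has the highest median and chromosome 10 the lowest, and on the X chromosome the windows step down toward the end, where blue marks the last 5.

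Whole chromosomes differed as well. Chromosome 8 stood at 0.31 relative to all genes, with 82.1% of its 630 genes above the median, and chromosome 17 at 0.24 (75.3% of 612). On chromosome 17 vector minus Myc stood at 0.04 and Minimal Myc minus Myc at -0.04, so that MycN stood apart. On chromosome 8 vector minus Myc stood at 0.13, a smaller shift to the same side, and Minimal Myc minus Myc at -0.09. Chromosome 15 stood at 0.23, chromosome 10 at -0.22 and chromosome 13 at -0.21. For these 3, vector and Minimal Myc differed from Myc in the same direction, by 0.25 and 0.19 on chromosome 15, -0.25 and -0.18 on chromosome 10 and -0.20 and -0.17 on chromosome 13, so that Myc stood apart. Mmp2, Cx3cl1 and Cdh13 lie on chromosome 8. Their differences were 2.2, 1.98 and 2.43, beside a median difference of 0.25 for that chromosome. The part of the chromosome in them was not tested.

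The cultures looked like fibroblasts by their markers. Of 17 fibroblast markers, 14 passed the filter, with a summed level of 4104 FPKM in Myc and 3217 in MycN, and Tcf21 was listed at 0 in both. Sums of other types were smaller. The largest in MycN was that of adipocyte markers, given above. The sums were 11.6 and 5.82 FPKM for epithelial markers, of which Epcam was at 0, 16.6 and 16.2 for immune markers, with Cd3e at 0, and 2.14 and 5.59 for endothelial markers, with Cldn5 at 0. Skeletal muscle markers summed to 19.8 and 18.5 FPKM, with Myod1 and Pax7 at 0, and neural markers to 23.7 and 31.1, with Olig2 at 0.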

How the data were processed

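RNA-seq of 4 libraries, 1 per culture, was compared. The labels' protocols describe poly(A) selection, libraries that keep strand by loss of the dUTP strand, and ERCC spike-in RNA added by cell number. The tables hold 0 spike-in rows. The authors deposited FPKM for 26576 identifier rows, with 32 NanoString rows of 30 genes as signal in the same columns, normalized in a way that the sources used here do not state. The build mm9 and the tools Cufflinks 2.2.0 and TopHat2 2.0.11 are named, per the submitters' processing notes, without a role.

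From these values, identical rows of a symbol were merged and differing rows summed (189 symbols). The pseudocount was 1, the filter a mean of 1 FPKM over the 4 libraries, and symbols starting with Mir, Snora, Snord, Scarna or Rnu were set aside. Calculations used Python 3.11.15 with pandas 2.3.3 and numpy 2.4.6. In simulated data they recovered 4-fold differences put into genes of at least 5 FPKM in Myc. Those differences were larger than the 2-fold cut, so the simulation says nothing about genes of lower FPKM or smaller differences. The libraries were grouped by their titles. No test was run with 1 library a group. Numbers per list are relative to the median of all genes.

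The comparison, the 46 gene lists and the naming rule were chosen with earlier results of these data known. Named were the Myc network, the 15 highest and 15 lowest genes above 0 in both libraries (without symbols of the form Gm with a number, LOC, Rik or -ps, and those with differing rows), up to 5 members per list with the largest difference, and the NanoString extremes, of which a few are not reported here; other named genes were chosen after their values were seen. Alternatives were a pseudocount of 0.1, no filter, a mean of 5 FPKM, the scaled table, equal totals, small RNA genes kept, the highest row, genes at 0 left out and, added after seeing the data, chromosome centring and leaving out the end of the X chromosome. RefSeq on GRCm38.p6 gave promoters and gene order only, since the files' build is another.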

Additional observations from a re-analysis of the deposited data

How the results depend on the processing

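No paired analysis was possible because each group has 1 library, and for the same reason leaving out each library in turn would leave no comparison. Of 46 list medians relative to all genes, none changed by over 0.1 when both libraries were set to the same total, small RNA genes were kept, the highest row was used or genes at 0 were left out. For single genes, 50 of 254 moved by over 0.5 with a pseudocount of 0.1 and 222 in the scaled table.

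The number of higher genes was 376 with a pseudocount of 0.1, 119 at a mean of 5 FPKM, 99 in the scaled table and 360 at the same total. The number of lower genes was 2351 in the scaled table and 197 at the same total, and the median difference was -0.67 and 0.13 there. The median NanoString ratio, 0.606, was 0.386 in the scaled table, which scales those rows too.

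List medians that moved are these. With a pseudocount of 0.1, interferon effectors stood at -0.92, cytokines at 0.57, axon guidance at 0.42 and histones at 0.49. Without a filter, cytokines stood at 0.15, other matrix proteins at 0.054, imprinted genes at 0.025, axon guidance at 0.13, BMP and Wnt modulators at 0.12, integrins and cadherins at -0.0097, Hox genes at 0.14 and iron genes at -0.24. At a mean of 5 FPKM, imprinted genes stood at 0.47, integrins and cadherins at -0.020 and iron genes at 0.010. In the scaled table, cytokines stood at 0.57, axon guidance at 0.49 and histones at 0.50. Centred on the chromosome, MHC class I stood at 0.076, cytokines at 0.28, growth factor receptors at -0.085, integrins and cadherins at -0.020 and histones at 0.56. Without the end of the X chromosome, collagens stood at 0.15. Filters change which genes are counted; the cause of the other moves was not tested.

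Depth is unknown, so genes of a few FPKM carry no counting interval, and their differences are least certain. No statement here separates the added genes from differences between these 2 cultures.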

Other observations

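Windows of 15 neighbouring genes, with the remaining genes of a chromosome added to its last window, were also compared, after the X chromosome had been seen. Of 766 windows, 10 stood at -0.5 or lower relative to all genes, 4 of them on the X chromosome, and 5 at 0.5 or higher. Outside the X chromosome the lowest was the window from Sbf2 to Far1 on chromosome 7, at -0.74, where 6 of 15 genes were lower by 2-fold or more. The highest was the window from Dennd3 to Zfp41 on chromosome 15, at 0.67, where 5 of 15 were higher by 2-fold or more. On chromosome 8 the window from Mmp2 to Rspry1 stood at 0.51, where 4 were. On chromosome 17 the window from H2-K1 to Pbx2, in the MHC, stood at 0.46, where 1 was.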
